A study of Mus musculus with 6 samples.

Results

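The interleukin-6 (IL-6) family of cytokines was examined through 10 genes of ligands, receptor chains and signal proteins, taken from a list of names and matched by symbol among 55385 mouse gene rows. All 10 were found: the ligands Il6, Il11, Lif and Clcf1, the receptor chains Il6ra, Il6st, Osmr and Lifr, the transcription factor Stat3 and the feedback inhibitor Socs3. RNA was sequenced in bulk from PDVC57, an established mouse squamous carcinoma cell line, in 3 libraries labelled Sox2 KO (the gene for the stem cell transcription factor Sox2 disrupted) and 3 labelled Sox2 overexpression (additional Sox2 supplied). The series' design text says that cells with low or high Sox2 were taken from grafted tumours, to ask which programmes of Sox2 could act on neutrophils. The host animals, the number of clones, the overexpression construct and the way cells were sorted are not given in the sources used here. Nothing in the labels says that replicates came from separate tumours, so p-values measure the spread between these libraries, which may be technical.

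IL-6 family cytokines act through receptor complexes that share the signal chain gp130, the product of Il6st. IL-6 and IL-11 first bind a receptor chain of their own, IL-6 receptor alpha (Il6ra) or IL-11 receptor alpha (Il11ra1). LIF pairs gp130 with the LIF receptor (Lifr), and oncostatin M pairs it with its own chain (Osmr). Cardiotrophin-like cytokine (Clcf1) uses gp130, Lifr and the CNTF receptor (Cntfr). The complexes activate JAK kinases and STAT3, and STAT3 induces Socs3, which limits the signal. In squamous epithelium and its tumours these cytokines can come from the epithelial cells themselves, from fibroblasts and from leukocytes.

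The overexpression libraries had lower Il6, Il11, Il6st, Osmr, Lifr and Socs3 RNA and higher Il6ra RNA than the knockout libraries, and Lif, Clcf1 and Stat3 did not pass the test. The falls of Il6 and Lifr were more than 100-fold between group means (205-fold and 106-fold), and the other changes lay between 1.69-fold and 3.30-fold. Thus 7 of the 10 genes passed an adjusted p of 0.05, 6 lower and 1 higher, where 31.6% of 18504 tested genes did (18.0% lower and 13.6% higher). The test was the edgeR quasi-likelihood test across all tested genes, with the Benjamini-Hochberg adjustment. All fold changes are overexpression over knockout. The series holds no library of unmodified PDVC57 cells, so a gain with knockout and a loss with overexpression cannot be told apart. The median log2 fold change was -1.17 for the 10 genes and -0.02 for all tested genes. The filter on low counts asked for its level in 3 libraries, which Lifr reached in no overexpression library and Il6 in 1 of them. Both genes thus passed it through the knockout libraries, and their share in these counts was partly set by the filter.

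Libraries held 31247976 to 38543221 counts over mouse genes. Sox2 itself had 25 to 49 counts in the knockout and 2566 to 4095 in the overexpression libraries (log2 fold change 6.58, adjusted p = 2.29e-06 in edgeR), which follows the labels. All 25 epithelial markers were detected in both groups, with a summed level of 6087 to 10188 CPM (counts scaled to library size) with knockout and 16594 to 23137 CPM with overexpression. The libraries also differed in markers of other cells. The 10 fibroblast markers (among them Col1a1, Pdgfra and Dcn) all fell (median log2 fold change -7.65) and summed to 53246 to 81228 CPM with knockout and 284 to 473 CPM with overexpression. Of the tested markers of other cells, 6 of 7 endothelial, 5 of 6 mural and 5 of 8 macrophage genes fell past the threshold. So did 3 of 6 lymphocyte and 1 of 3 neutrophil genes, and 1 mural gene rose. Over all tested genes, 18.0% were lower and 13.6% higher. The level of the count filter was reached in the knockout libraries only by Cdh5, Kdr (endothelial), Tyrobp, Fcer1g (macrophage), Cd8a and Nkg7 (lymphocyte). These counts were thus partly set by the filter. Endothelial markers summed to 33.4 to 127 CPM with knockout and 13.6 to 20.2 CPM with overexpression, mural cell markers to 247 to 372 and 90.2 to 130 CPM, macrophage markers to 30.1 to 146 and 14.1 to 28.4 CPM, and lymphocyte markers to 6.41 to 48.6 and 2.12 to 4.66 CPM. Neutrophil markers overlapped between the groups, at 4.54 to 8.73 and 2.65 to 9.90 CPM. S100a9 and Retnlg were at 0 in all overexpression libraries. However, 3 of the 6 neutrophil markers, S100a9 and Retnlg among them, did not pass the count filter, so a fall of these genes was not tested. Knockout replicate 3 was the highest library for macrophage, lymphocyte and endothelial markers and the lowest for epithelial markers. In bulk RNA, fewer cells of a type and less RNA per cell cannot be told apart, and the part of these other cells in the results on the IL-6 family was not tested.

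**Figure D1:**
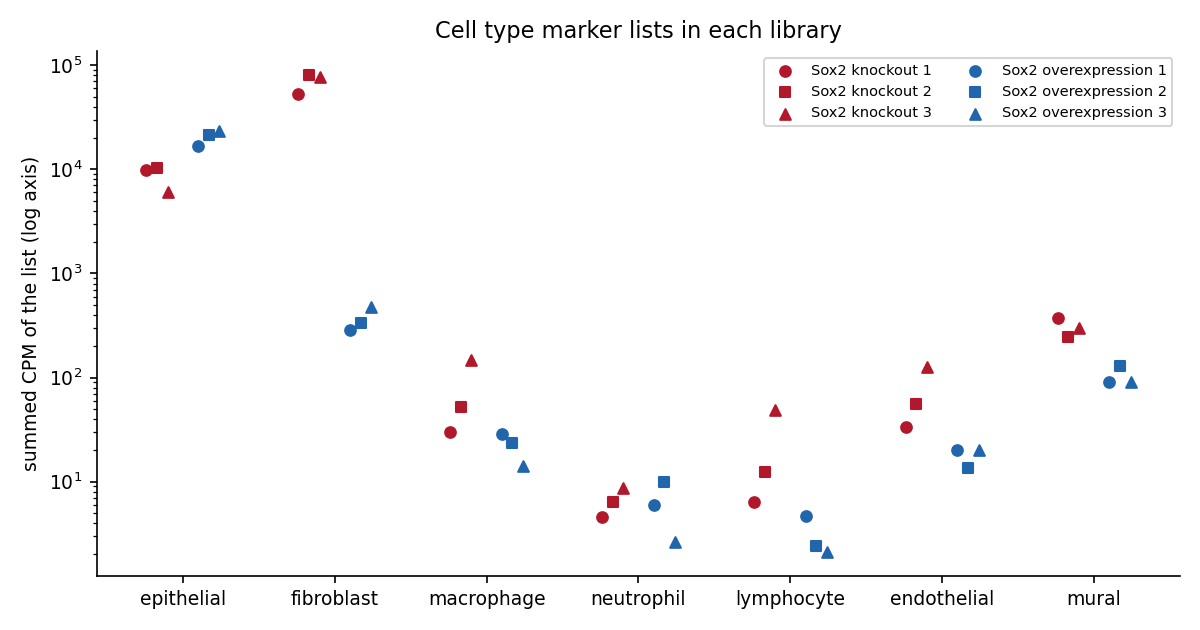
Summed CPM (log axis) of 7 lists of cell type markers in each of the 6 libraries, with symbols for the replicates. Fibroblast markers lay between 53246 and 81228 CPM in the knockout libraries (red) and between 284 and 473 CPM in the overexpression libraries (blue), while the epithelial sums were higher with overexpression.

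Stretches ahead of the transcription start of 5 of the genes are shown because they hold letters of binding motifs for factor families of this pathway or for SOX factors. They are from RefSeq's promoter table (GRCm38.p6), which had entries for 9 of the 10 genes and none for Clcf1, in 11 windows of 250 bases before a start. Both strands were searched for TTCNNNGAA (STAT), CATTGT (SOX), TGANTCA (AP-1) and an NF-kB motif (GGGA, any base, then TTTCC), and capitals mark every match. Positions count from 1 at the base just before the start that the table uses.
Il6, chr5:30012864-30013113, plus strand, bases 250 to 1 before the start: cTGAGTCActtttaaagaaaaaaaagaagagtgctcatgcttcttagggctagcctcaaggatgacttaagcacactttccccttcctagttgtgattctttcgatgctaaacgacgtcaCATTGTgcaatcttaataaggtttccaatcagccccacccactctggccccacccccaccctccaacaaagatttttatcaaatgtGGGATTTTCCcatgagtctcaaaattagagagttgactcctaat
Il11, chr7:4778207-4778266, minus strand, bases 125 to 66: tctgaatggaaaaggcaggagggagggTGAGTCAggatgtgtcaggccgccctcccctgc
Lif, chr11:4257318-4257377, plus strand, bases 250 to 191: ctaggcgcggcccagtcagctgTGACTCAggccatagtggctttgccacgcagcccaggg
Lifr, chr15:7140300-7140359, plus strand, bases 242 to 183: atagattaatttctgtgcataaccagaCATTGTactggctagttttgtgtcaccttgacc
Socs3, chr11:117969487-117969546, minus strand, bases 180 to 121: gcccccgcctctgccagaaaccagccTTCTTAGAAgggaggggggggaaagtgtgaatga

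The Il6 window held 3 of the 4 motifs: AP-1 letters from base 249, SOX letters from base 130 and NF-kB letters from base 44 before the start. AP-1 letters also lay in 1 of the 2 windows of Il11 (from base 98) and in that of Lif (from base 228), SOX letters in 1 of the 2 windows of Lifr (from base 215), and STAT letters in that of Socs3 (from base 154). Over 32851 windows of the same length in the table, 7.02% held the STAT letters, 10.7% the SOX letters, 6.75% the AP-1 letters and 0.356% the NF-kB letters. None of the 4 lay in the windows of Il6ra, Il6st, Osmr or Stat3 or in the second windows of Il11 and Lifr. None of the printed stretches overlaps an exon annotated in GENCODE M21. A match of letters is a description of the sequence and not a measured binding site.

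Among the ligands, Il6, the inflammatory cytokine that gives the family its name, changed most. Il6 (ENSMUSG00000025746, chromosome 5, 30013114 to 30019981, 4 merged exons) was counted 914, 2573 and 1383 times in the knockout libraries, in the order of replicates 1 to 3, and 6, 11 and 7 times in the overexpression libraries. These are 26.8, 85.0 and 37.9 CPM against 0.183, 0.372 and 0.177 CPM. Knockout replicate 2 was the highest library, and even the lowest knockout library was far above each overexpression library. The log2 fold change was -7.69 (standard error 0.58, adjusted p 2.1e-05 by edgeR), and leaving out knockout replicate 2 took the mean of that group from 49.9 to 32.3 CPM and the estimate to -7.05. The fall was close in size to the median fall of the fibroblast markers. Per 1000 CPM of summed fibroblast markers, Il6 stood at 0.502, 1.05 and 0.496 CPM in the knockout libraries and at 0.645, 1.12 and 0.374 CPM in the overexpression libraries. On this ratio, chosen after the values were seen, the groups overlapped. The ratio restates the comparison of these falls, and its overexpression values rest on 6 to 11 counts of Il6. The part of fibroblasts in the fall of Il6 was not tested.

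Il11 (chromosome 7, 4772373 to 4782859), a cytokine made by stromal and some carcinoma cells, was low throughout. Its counts were 46, 38 and 71 with knockout and 24, 10 and 25 with overexpression, or 1.35, 1.25 and 1.94 CPM against 0.731, 0.338 and 0.632 CPM. The groups did not overlap, which was so for 50.9% of all tested genes (24.4% with overexpression higher and 26.5% with it lower). The log2 fold change was -1.41 (standard error 0.42, adjusted p 0.0328 by edgeR), and this call was lost when any 1 of the 6 libraries was left out, with adjusted p-values from 0.0501 (without overexpression replicate 1) to 0.0836 (without knockout replicate 3).

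Lif, which signals through Lifr and gp130, did not pass the test. Lif (chromosome 11, 4257557 to 4272514) had 58.3, 62.1 and 49.1 CPM with knockout and 93.5, 71.5 and 42.1 CPM with overexpression. The overexpression libraries included both the highest and the lowest value, so the groups overlapped (log2 fold change 0.29, SE 0.27, adjusted p = 0.438, edgeR). Clcf1 (chromosome 19, 4214238 to 4223490) had 87.4, 69.0 and 68.0 CPM with knockout and 52.7, 64.3 and 60.8 CPM with overexpression. Each overexpression library was below each knockout library, but the test was not passed (log2 fold change -0.34, SE 0.16, adjusted p = 0.144, edgeR). Exons of Clcf1 share 311 bases with those of AC109138.7 on the same strand, so some reads could belong to either gene.

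**Figure D2:**
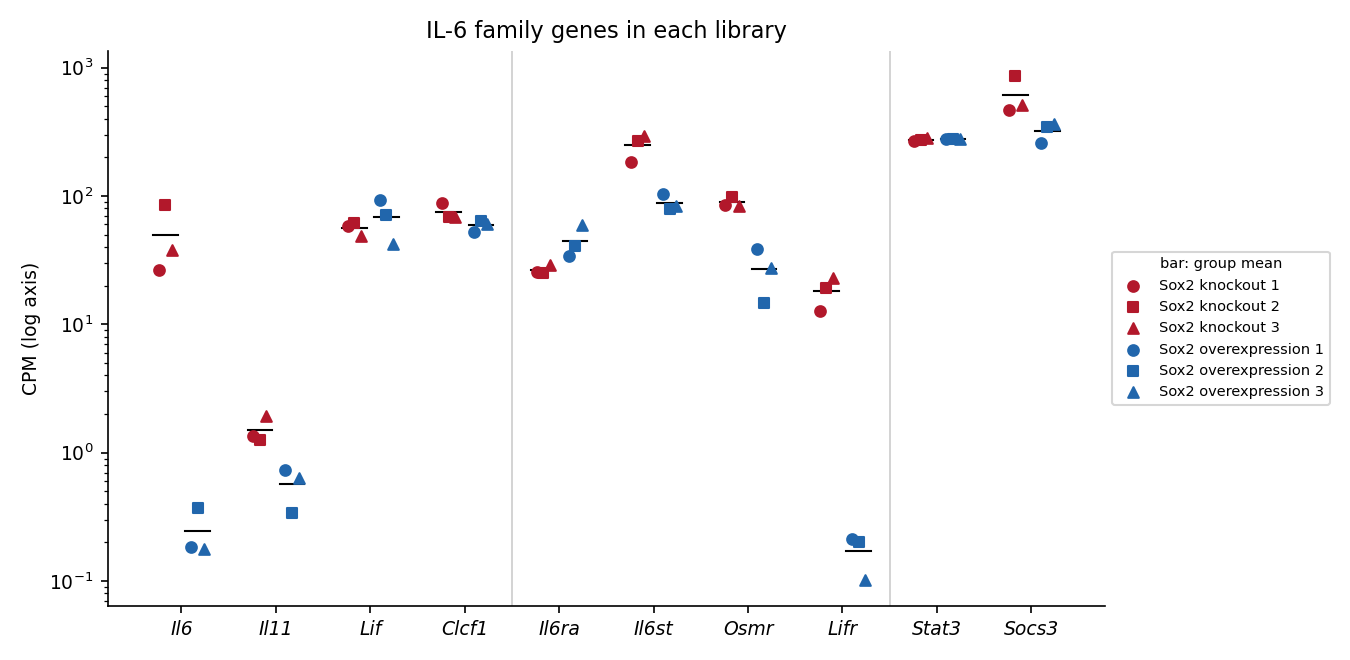
CPM (log axis) of the 10 IL-6 family genes in each library, with ligands, receptor chains and signal genes parted by grey lines and horizontal bars at the group means. Il6 and Lifr fell from means of 49.9 and 18.3 CPM in the knockout libraries (red) to 0.244 and 0.172 CPM in the overexpression libraries (blue), while the Stat3 values lie on top of each other.

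The make-up of the ligand RNA differed between the groups. Levels of different genes were set side by side as CPM per kilobase of merged exons. On that scale the 4 ligands summed to 48.1, 68.0 and 45.7 in the knockout libraries and 35.8, 33.7 and 26.03 in the overexpression libraries. In the order of these levels, Il6 (20.5 ± 12.7, SD, n = 3), Clcf1 (19.7 ± 2.87, SD, n = 3) and Lif (12.99 ± 1.54, SD, n = 3) were within the spread of Il6 from each other with knockout, and Il11 (0.728 ± 0.180, SD, n = 3) was far below them. With overexpression, Lif (15.9 ± 5.93, SD, n = 3) and Clcf1 (15.6 ± 1.56, SD, n = 3) did not differ beyond their spread, and Il11 (0.272 ± 0.0983, SD, n = 3) and Il6 (0.100 ± 0.0456, SD, n = 3) were lowest. Il6 thus made up 22.9%, 51.5% and 34.1% of the summed ligand level in knockout replicates 1, 2 and 3 and at most 0.455% in an overexpression library. Lif and Clcf1 together made up nearly all of it with overexpression. The ratio of Il6 to Lif counts, which no scaling of libraries can change, was 0.459, 1.37 and 0.772 with knockout and 0.00196, 0.00519 and 0.0042 with overexpression.

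**Figure D3:**
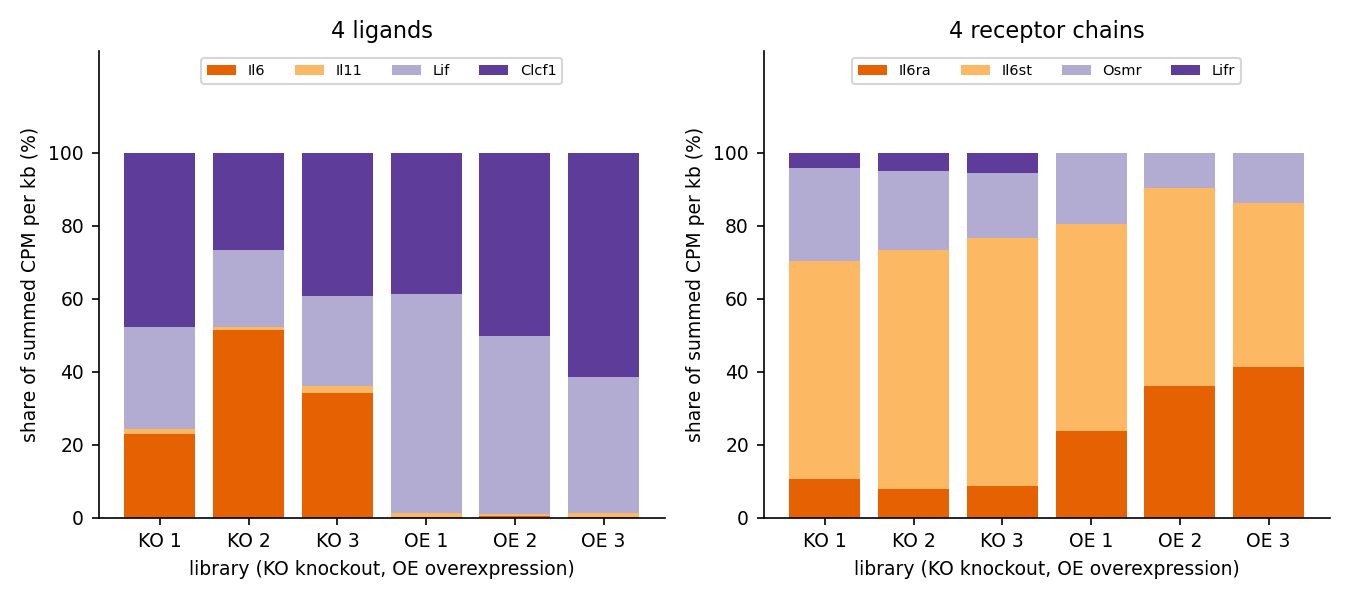
Share (%) of each gene in the summed CPM per kilobase of the 4 ligands (left) and of the 4 receptor chains (right), 1 bar per library. The Il6 part of the ligand bars was 22.9% to 51.5% with knockout and at most 0.455% with overexpression, and the Il6ra part of the receptor bars was 7.77% to 10.6% with knockout and 23.9% to 41.3% with overexpression.

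Of the receptor chains, the shared chain and both chains of the LIF and oncostatin M receptors fell, and the IL-6 receptor rose. Il6st (chromosome 13, 112464070 to 112510086), which encodes gp130, had 185, 271 and 293 CPM with knockout and 103, 79.1 and 83.9 CPM with overexpression. The lowest knockout library was above the highest overexpression library, and the log2 fold change was -1.49 (standard error 0.21, adjusted p 0.000789 by edgeR). Osmr (chromosome 15, 6813577 to 6874969) had 85.3, 98.3 and 83.7 CPM with knockout and 38.4, 14.8 and 27.7 CPM with overexpression. The overexpression libraries were all lower and spread more widely than the knockout libraries, and the log2 fold change was -1.72 (standard error 0.30, adjusted p 0.0028 by edgeR). Both calls held in each fit that left out 1 library, with adjusted p-values of at most 0.00694 for Il6st and 0.0129 for Osmr.

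Lifr (ENSMUSG00000054263, chromosome 15, 7090614 to 7197489), the chain that LIF needs, was nearly absent with overexpression. It had 434, 586 and 833 counts in the knockout libraries and 7, 6 and 4 in the overexpression libraries, or 12.7, 19.4 and 22.8 CPM against 0.213, 0.203 and 0.101 CPM. The groups were far apart, at -6.73 on the log2 scale (standard error 0.39, adjusted p 5.09e-06 by edgeR). Per 1000 CPM of summed fibroblast markers, Lifr stood at 0.239, 0.238 and 0.299 CPM with knockout and 0.752, 0.612 and 0.213 CPM with overexpression, so on this ratio the groups overlapped, as they did for Il6. The other 8 genes of the list were higher on this ratio in each overexpression library than in any knockout library, but so were 95.1% of all tested genes (0.751% were lower in each), since the sum of the fibroblast markers fell so far. That count therefore says nothing particular about the 8 genes.

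Il6ra (chromosome 3, 89864059 to 89913196), which gives a cell its own binding chain for IL-6, moved the other way. It had 25.4, 25.0 and 29.1 CPM with knockout and 34.0, 40.8 and 59.9 CPM with overexpression. Overexpression replicate 3 was the highest, and the groups did not overlap. The log2 fold change was 0.76 (standard error 0.22, adjusted p 0.0284 by edgeR), but the call was lost without knockout replicate 1 (adjusted p = 0.077), knockout replicate 2 (0.0967) or overexpression replicate 3 (0.0863). Exons of Il6ra overlap those of Gm42809 on the other strand by 242 bases.

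Set against gp130, the receptor chains shifted in opposite ways. There were 0.137, 0.0923 and 0.0994 Il6ra counts per Il6st count with knockout and 0.329, 0.516 and 0.713 with overexpression. There were 0.0687, 0.0715 and 0.0779 Lifr counts per Il6st count with knockout and 0.00206, 0.00256 and 0.0012 with overexpression. For Osmr the ratio to Il6st was 0.461, 0.363 and 0.286 with knockout and 0.371, 0.187 and 0.33 with overexpression, and here the groups overlapped. Per kilobase of exon, Il6st was the highest of the 4 chains in both groups, at 22.5 ± 5.14 and 8.0 ± 1.16 CPM (SD, n = 3 each). The chain next to it was Osmr with knockout (7.36 ± 0.660, SD, n = 3) and Il6ra with overexpression (5.19 ± 1.55, SD, n = 3).

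Stat3 (chromosome 11, 100885098 to 100939540), the main transcription factor of the pathway, had almost the same level in all libraries. It had 267, 271 and 285 CPM with knockout and 276, 276 and 278 CPM with overexpression, and the overexpression values lay inside the knockout range. Its log2 fold change was 0.01 (standard error 0.13, adjusted p 0.95 by edgeR). The level of Stat3 RNA does not measure phosphorylation of the protein. Socs3 (chromosome 11, 117966079 to 117970047), the feedback inhibitor that STAT3 induces, had 466, 862 and 515 CPM with knockout and 258, 346 and 366 CPM with overexpression. Knockout replicate 2 was the highest library for Socs3, and the groups did not overlap. The log2 fold change was -0.93 (standard error 0.26, adjusted p 0.0266 by edgeR). The adjusted p was above 0.05 without knockout replicate 2 (0.0925, with a log2 fold change of -0.60) and without overexpression replicate 1 (0.0752), 2 (0.0636) or 3 (0.0517).

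**Figure D4:**
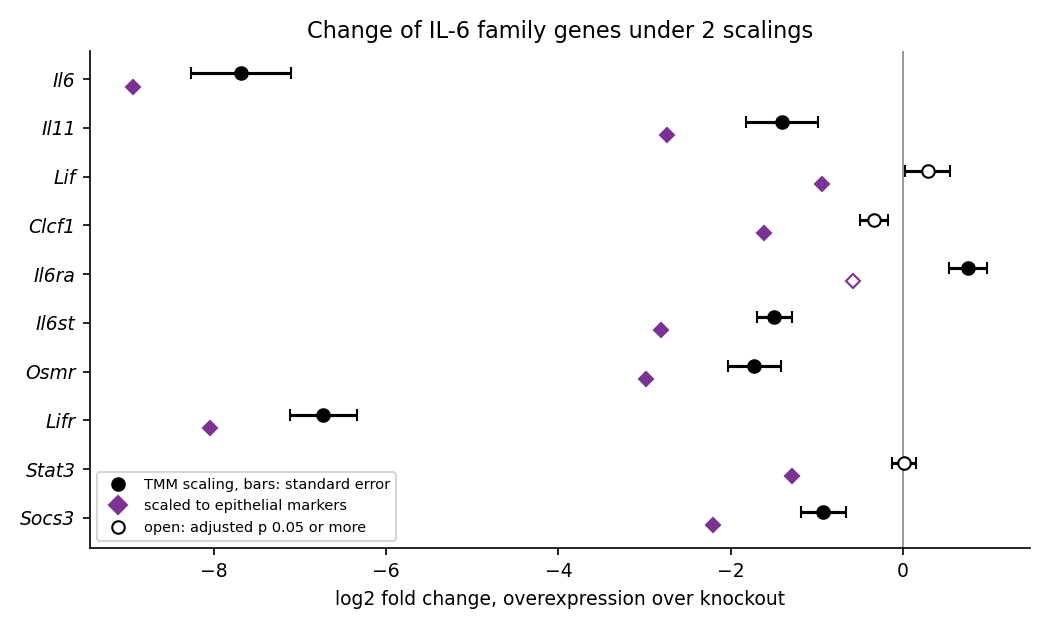
Log2 fold change, overexpression over knockout, of the 10 genes with TMM scaling (black circles, bars show the standard error) and with libraries scaled to the epithelial markers (purple diamonds), with open symbols at an adjusted p of 0.05 or more. With the epithelial scaling each gene moved to the left, and Lif, Il6ra and Stat3 changed sign.

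The choice of scaling mattered for the genes with small changes. Of the 25 epithelial markers, 18 were higher past the threshold with TMM scaling and 0 were lower. Scaling to this list therefore lowers the fold changes of all genes. Where libraries were scaled to the 25 epithelial markers by their median ratio, the median over the 18504 genes moved on the log2 scale from -0.02 to -1.30, with 1.70% of genes higher and 75.9% lower past the threshold. Under that scaling 9 of the 10 genes were lower past the threshold and none was higher. Lif had a log2 ratio of -0.93 (adjusted p 0.014 by edgeR), Stat3 of -1.28 (0.00073), Clcf1 of -1.61 (6.0e-05) and Il6ra of -0.58 (0.0899). Relative to the shift of all tested genes, Il6ra and Lif were again above the median and Stat3 was near it. Il6, Lifr, Il6st, Osmr, Il11 and Socs3 were lower past the threshold under both scalings.

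A list of 32 other genes of the pathway held the remaining ligands and receptors, the kinases and adaptors, inhibitors and the enzymes that shed receptors. Of 30 tested, 3 were higher and 8 lower past the threshold (36.7% in all, against 31.6% of all tested genes, 13.6% higher and 18.0% lower), with a median log2 fold change of -0.15. This share is near that of all tested genes. Of the 8 lower genes, 4 (Osm, Cntfr, Il27ra and Il31ra) reached the level of the count filter in the knockout libraries only. The ligand genes moved in both directions. Osm, encoding oncostatin M, a cytokine made mostly by leukocytes, had 1.41, 2.74 and 3.28 CPM with knockout and 0.0305, 0.101 and 0.177 CPM with overexpression. The log2 estimate was -4.50 (adjusted p 0.000652 by edgeR), and -5.16 without overexpression replicate 3, which had 7 counts against 1 and 3 in the others. The summed macrophage and lymphocyte markers were also higher in the knockout libraries, but single markers differed: Csf1r averaged 6.41 CPM with knockout and 11.6 CPM with overexpression, Cd68 averaged 6.12 and 8.61 CPM, and both overlapped between the groups, as did C1qb, Mrc1, Cd4, Trac and Ms4a1. The part of these cells in the fall of Osm was not tested.

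Ctf1, encoding cardiotrophin-1, a ligand of gp130 and Lifr, rose. It had 1.29, 0.859 and 0.493 CPM with knockout and 4.54, 6.72 and 5.20 CPM with overexpression, a change of 2.64 on the log2 scale (standard error 0.40, adjusted p 0.00126 by edgeR). It kept a log2 fold change of 1.44 (adjusted p = 0.0109) with the epithelial scaling. Exons of Ctf1 and Ctf2 overlap by 87 bases on opposite strands. Ebi3, a subunit of IL-27 that overlaps Gm16712 on the other strand, rose from at most 1.01 CPM with knockout to 4.27, 2.06 and 1.11 CPM with overexpression (log2 fold change 2.37, adjusted p = 0.0468, edgeR). Its call was lost without knockout replicate 1 (adjusted p = 0.111) or 2 (0.107) and without overexpression replicate 1 (0.142, with a log2 fold change of 1.75) or 2 (0.0995). Its log2 fold change was 3.61 without knockout replicate 3. Cntf, Ctf2 and Il27 did not pass, with log2 fold changes of -0.52, -0.95 and 0.57, and Il31 had no count in any library. Exons of Cntf share 847 of their 1073 bases with those of Zfp91 on the same strand, so its reads could belong to either gene.

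The 4 tested receptor chains of this list were lower with overexpression, but Cntfr, Il27ra and Il31ra passed the count filter only through the knockout group where they are high, so their number is no support for a direction. Il11ra1, the IL-11 receptor chain, had 78.2, 187 and 192 CPM with knockout and 1.98, 2.33 and 2.53 CPM with overexpression, a change of -6.06 on the log2 scale (standard error 0.39, adjusted p 8.61e-06 by edgeR). Il11ra1 and Il11ra2 are nearly identical copies whose reads could have been split by the counting, and Il11ra2 did not pass the filter, with 2, 10 and 24 counts against none. Cntfr, the chain for CNTF and CLCF1, had 5.47, 8.69 and 5.58 CPM with knockout and at most 4 counts in an overexpression library, with a log2 ratio of -6.53 (adjusted p 7.59e-05 by edgeR). Il27ra had 1.49, 1.82 and 7.01 CPM with knockout and only 0, 1 and 5 counts with overexpression. Its log2 ratio was -5.82 (adjusted p 0.00201 by edgeR). Knockout replicate 3, the highest library for Il27ra, was also the highest for macrophage, lymphocyte and endothelial markers. The part of these cells in the fall of Il27ra was not tested. The knockout mean of Il27ra was 3.44 CPM. Without knockout replicate 3 it was 1.65 CPM, with a log2 fold change of -4.75. Leaving out overexpression replicate 3, which held the 5 counts, gave a log2 fold change of -7.42. Il31ra was low, at 0.673 to 1.01 CPM with knockout and 0.0676 to 0.122 CPM with overexpression (log2 fold change -3.12, adjusted p = 0.00187, edgeR). Per 1000 CPM of summed fibroblast markers, Il11ra1 stood at 1.47 to 2.51 CPM with knockout and 5.34 to 7.03 CPM with overexpression. Il11ra1, Il31ra and Osm were thus higher on this ratio in each overexpression library, as were 95.1% of all tested genes. Cntfr and Il27ra overlapped between the groups on it, with at most 5 counts of either gene in an overexpression library.

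Few of the kinases, adaptors and inhibitors passed. Of 8 signal genes, Jak1, a kinase bound to gp130, was the only one past the threshold. It fell from 158, 203 and 256 CPM with knockout to 137, 133 and 143 CPM with overexpression (log2 fold change -0.58, adjusted p = 0.0453, edgeR). Its adjusted p lay between 0.0971 and 0.176 without knockout replicate 2 or 3 or any 1 overexpression replicate. Jak2, Tyk2, Ptpn11, Gab1, Stat5a and Stat5b had log2 fold changes between -0.32 (Stat5a) and -0.02 (Jak2). Of 7 inhibitors, Socs2, a feedback inhibitor of growth hormone and related signals, rose from 17.4, 16.8 and 16.8 CPM to 39.3, 31.04 and 30.9 CPM (log2 fold change 0.99, adjusted p = 0.00184, edgeR), but had a log2 fold change of -0.28 with the epithelial scaling (adjusted p = 0.409). Socs1, the relative of Socs3, had a log2 ratio of 0.09 (adjusted p 0.82 by edgeR).

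Of 4 genes of receptor shedding, Adam17, the protease that releases soluble IL-6 receptor, fell from 60.5, 79.5 and 80.6 CPM with knockout to 45.7, 32.8 and 42.0 CPM with overexpression (log2 fold change -0.87, adjusted p = 0.00681, edgeR). Its exons overlap those of Iah1 on the other strand. Rhbdf2, a partner of ADAM17, fell from 38.9, 40.4 and 35.5 CPM to 20.6, 27.0 and 23.9 CPM (log2 fold change -0.68, adjusted p = 0.0113, edgeR), with an adjusted p of 0.0565 without knockout replicate 2. Adam10 and Rhbdf1 did not pass, with log2 fold changes of -0.15 and 0.42. Both fallen genes lay below their knockout values in each overexpression library, as did 26.5% of all tested genes.

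**Figure D5:**
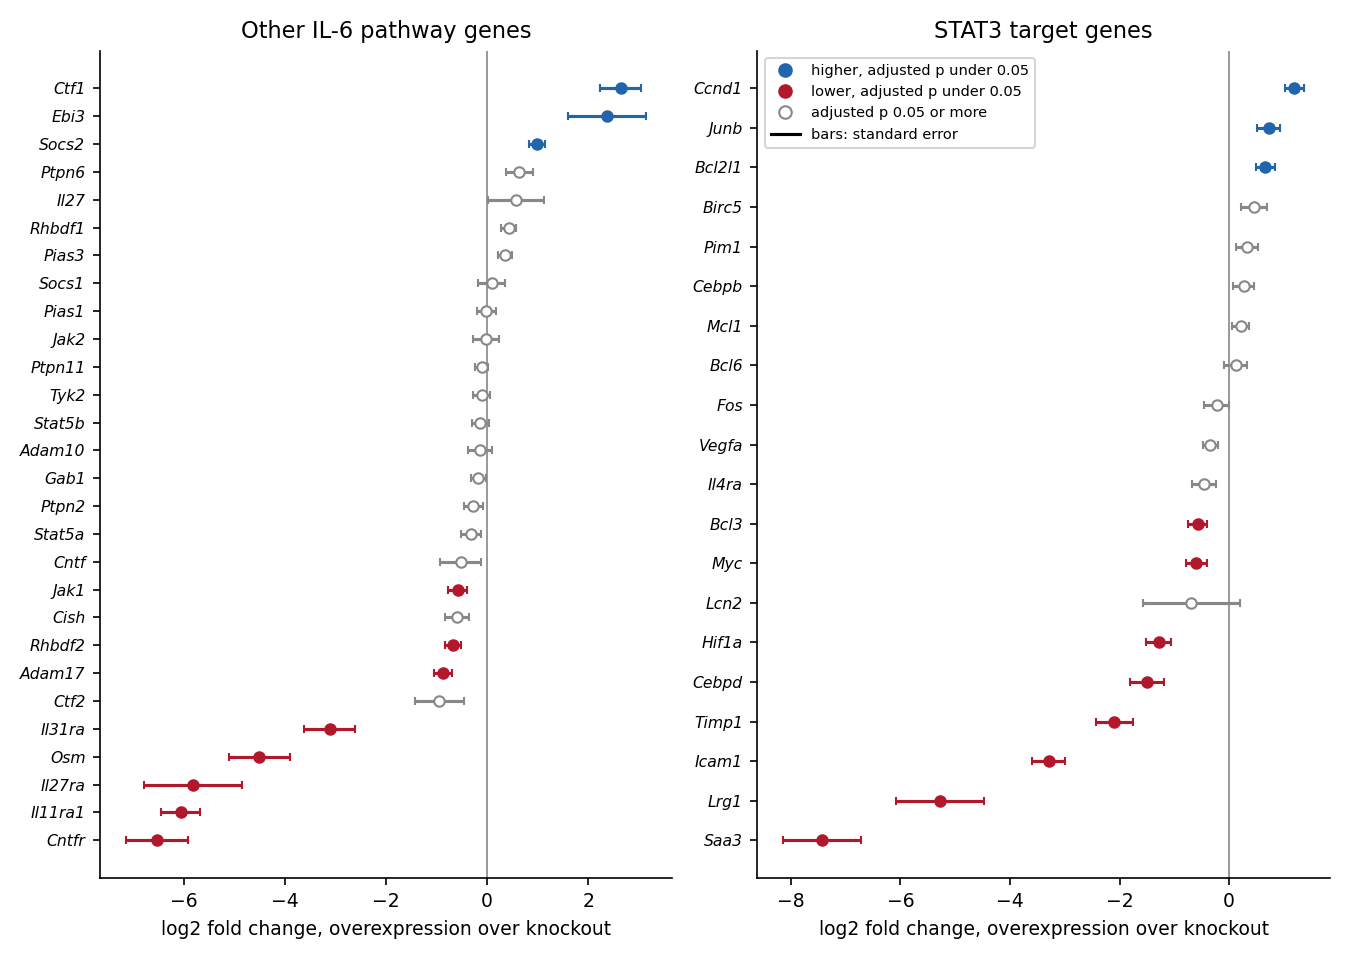
Log2 fold change with its standard error for 28 of the other genes of the IL-6 pathway (left) and 20 target genes of STAT3 (right), overexpression over knockout. The 5 lowest pathway genes, Cntfr, Il11ra1, Il27ra, Osm and Il31ra, have log2 fold changes from -6.53 to -3.12, and among the targets Saa3 (-7.43) and Ccnd1 (1.19) stand at the ends.

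Genes known as targets of STAT3 in some cell types did not move in 1 direction. Of 20 tested, 3 were higher and 8 lower past the threshold (55.0% in all, against 31.6% of all tested genes, 13.6% higher and 18.0% lower), and the median log2 fold change was -0.40. Of the 8 lower genes, Lrg1 reached the level of the count filter in the knockout libraries only. Many of them answer to other pathways as well. The genes that fell with the smallest p-values were Icam1, Saa3, Lrg1 and Timp1. Icam1, an adhesion molecule that binds leukocytes, had 66.8, 133 and 96.6 CPM with knockout and 12.8, 7.40 and 10.2 CPM with overexpression (log2 fold change -3.29, adjusted p = 6.88e-05, edgeR). Its exons overlap those of Gm47079 on the other strand. Saa3, an acute-phase protein, had 106, 387 and 598 CPM with knockout and 3.11, 1.82 and 1.41 CPM with overexpression (log2 fold change -7.43, adjusted p = 8.58e-05, edgeR). Per 1000 CPM of summed fibroblast markers, Saa3 was at 1.98 to 7.83 CPM with knockout and 2.99 to 10.96 CPM with overexpression, and the groups overlapped. On the same ratio Icam1 (1.26 to 1.64 CPM against 21.5 to 45.01 CPM), Timp1 (1.04 to 1.68 against 41.4 to 107 CPM) and Cebpd (1.08 to 1.71 against 68.5 to 138 CPM) were higher in each overexpression library, as were 95.1% of all tested genes.

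Lrg1, a secreted acute-phase glycoprotein, had at most 2 counts in an overexpression library. Against a floor of 3 counts in the overexpression library with the least depth, it was at least 16.3-fold lower (adjusted p = 0.00126, edgeR). The knockout libraries averaged 1.65 CPM, and 0.874 CPM with replicate 3 left out. Timp1, an inhibitor of matrix proteases, fell from 89.5, 129 and 79.8 CPM to 14.8, 35.5 and 19.6 CPM (log2 fold change -2.09, adjusted p = 0.00158, edgeR). Hif1a, Cebpd, Myc and Bcl3 fell too, by log2 estimates of -1.28, -1.50, -0.60 and -0.57. The adjusted p of Myc was 0.0447 and lay between 0.0686 and 0.178 without knockout replicate 2 or 3 or any 1 overexpression replicate. That of Bcl3 was 0.0349 and lay between 0.0526 and 0.153 without any 1 library other than overexpression replicate 1.

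The targets that rose were Ccnd1, Junb and Bcl2l1. Ccnd1, the cell cycle gene of cyclin D1, had 304, 302 and 272 CPM with knockout and 626, 794 and 582 CPM with overexpression (log2 fold change 1.19, adjusted p = 0.00104, edgeR). Its exons overlap those of LTO1 on the other strand by 1100 bases. Junb, a subunit of AP-1, had 1671, 2111 and 1568 CPM with knockout and 2500, 3531 and 2814 CPM with overexpression (log2 fold change 0.73, adjusted p = 0.0308, edgeR), with adjusted p-values between 0.0516 and 0.108 without knockout replicate 1 or 3 or overexpression replicate 2 or 3. Bcl2l1, the survival gene of BCL-xL, had a log2 ratio of 0.66 (adjusted p 0.021 by edgeR), with an adjusted p of 0.0887 without knockout replicate 2. With the epithelial scaling all 3 had log2 fold changes below 0 (-0.08, -0.55 and -0.62) that did not pass the threshold.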

How the data were processed

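The authors deposited 1 table of raw counts per gene, whole numbers in 1 column per library, whose names equal the descriptions in the labels. Per the submitters' processing notes, kallisto 0.44.0 and the build mm10 were used, with no role stated. The annotation, strand setting and any rounding are not given in the sources used here. Per the labels' protocols, total RNA went into libraries made with a kit for low input. Of 55481 rows, 96 name no mouse gene (92 spike-in and 4 construct sequences, at most 2.23e-05% of a library) and were left out. Symbols matched 55144 of 55385 gene IDs. Where 106 symbols had several IDs, the ID with most counts kept the symbol. Positions and merged exons are from GENCODE M21 (GRCm38, the same assembly as mm10).

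Genes passing filterByExpr (minimum count 10, minimum total 15) were normalized with TMM and tested with edgeR 4.0.16 (estimateDisp, glmQLFit, glmQLFTest, defaults) in R 4.3.3, with all 6 libraries and group alone in the model. The standard error is the log2 fold change divided by the square root of F. CPM uses the TMM-scaled library sizes. A count of 0 allows up to 3 counts, which are 0.0758 to 0.101 CPM per library, for counting error only. No batch or date is in the labels. The fit was tested on simulated counts. The genes, lists, motifs, alternatives and naming rule were chosen with earlier results of these data known. The rule names all 10 genes, every tested gene of the other ligand and receptor lists (1 is not reported here), and up to 4 genes past the threshold per direction in each further list; Myc, Bcl3, Hif1a and Cebpd, and the genes that did not pass, were named beyond it to account for the lists. Alternatives were RLE and upper-quartile scaling, scaling to the epithelial markers, no filter beyond 1 count, robust dispersion, the Wald test of DESeq2 1.42.0, a replicate block and leaving out each library.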

Additional observations from a re-analysis of the deposited data

Results flagged for a closer look

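Outside the mouse genes, the row of the reporter mCherry held 8 counts in knockout replicate 3, above the 3 counts that a count of 0 allows, and at most 1 count in every other library.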

How the results depend on the processing

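Of the 130 alternative values for the 10 genes, 111 kept their direction and their side of the threshold. Another 14 kept their direction but fell short of it, and 1 kept its direction and newly passed it. The remaining 4 changed sign and were counted apart, whichever side of the threshold they lay on. The signs changed for Lif (-0.93), Il6ra (-0.58) and Stat3 (-1.28) with the epithelial scaling and for Stat3 (-0.0461) with upper-quartile scaling. With the epithelial scaling, Lif and Stat3 also newly passed the threshold, as lower, and Il6ra also fell short of it. Il6, Il6st, Osmr and Lifr passed the threshold in every alternative run. Il11 had an adjusted p of 0.0512 with no filter. With the epithelial scaling, 314 genes were higher and 14044 lower over all tested genes, 0 of the 10 genes were higher, 1 other pathway gene was higher and 25 lower, and 0 STAT3 targets were higher and 17 lower. With 1 library left out, 1446 to 2599 genes were higher over all tested genes and 0 to 1 of the 10 genes was higher, while 4 to 5 of the 10 were lower; the causes were not tested beyond the smaller number of libraries. With the replicate block, 2416 genes were higher and 3177 lower, and 6 of the 10 genes were lower and 1 higher. Deviations from the group means of libraries with the same number had correlations of 0.0508, 0.0223 and -0.0399 across genes. No pairing by number was thus visible, but whether libraries of the same number were handled together cannot be told from this. At this depth, the overexpression levels of Il6 and Lifr rest on 4 to 11 counts per library.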
